A study of Mus musculus with 12 samples.

Results

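Expression of 10 mouse genes that serve protein folding and protein entry in the endoplasmic reticulum (ER) was followed in 12 liver libraries. The genes were taken by name from a table of 47263 genes: the chaperones Hspa5, Hyou1, Hsp90b1, Dnajb9 and Sdf2l1, the disulfide isomerases Pdia4 and Pdia6, the translocation channel subunits Sec61a1 and Sec61b, and the transcription factor Xbp1. All 10 were found, and all 10 passed the filter on low values (10 normalized reads or more, in 3 or more libraries), which left 13871 genes to test. The study asked what Sirt2, an NAD-dependent deacetylase, contributes to liver cancer formation, and RNA of whole liver was sequenced in 4 groups of 3 libraries. KO MET/CAT livers lacked Sirt2 in hepatocytes and received the oncogene plasmids pT3-EF1a-c-MET, which carries the receptor MET, and pT3-EF1a-DN90-β-Catenin, which carries a beta-catenin, together with HSB2, the plasmid of the transposase that inserts them into the genome. WT MET/CAT livers received the same plasmids with Sirt2 intact. KO GFP and WT GFP livers are named in the sample titles for a GFP plasmid, whose backbone and dose the labels do not describe. Mice of 6 to 8 weeks were injected under pressure through the tail vein, a route that mainly transfects hepatocytes, and livers were collected 8 weeks afterwards. The labels name neither the Cre line behind the hepatocyte knockout nor the tumour content of each liver. The groups follow the titles. The treatment label names GFP for all WT libraries and MET/CAT for all KO libraries, and so goes against the titles of the KO GFP and WT MET/CAT libraries. Nothing in the labels ties each library to a mouse of its own, so every p-value refers to the spread among libraries, which may be partly technical.

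Secreted and membrane proteins enter the ER through the Sec61 channel while they are being made. Inside, BiP (the product of Hspa5) binds the growing chain in cycles of ATP hydrolysis, helped by J-domain partners and by nucleotide exchange factors. Disulfide isomerases form and rearrange the bonds between cysteines. When unfolded protein accumulates, the sensors IRE1, ATF6 and PERK start the unfolded protein response, which raises the genes of folding, entry and degradation. IRE1 splices the Xbp1 mRNA so that it encodes an active transcription factor. Hepatocytes secrete most plasma proteins and carry an extensive ER. A known promoter element of ER chaperone genes is the ER stress response element (ERSE), to which NF-Y and ATF6 bind.

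The ERSE was searched in the 250 bases before the transcription start of each gene, because it is the element that many of these genes are known to share. Starts and sequences are those of RefSeq on GRCm38.p6, where 8 of the 10 genes had an entry, all except Hyou1 and Sec61a1. Written as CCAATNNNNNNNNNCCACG and searched on both strands, the ERSE was present in 3 of these 8 genes and in 35 of all 27025 genes with an entry (0.13%). Hspa5 carried 1 match at −65 to −47 from the start, Pdia6 carried 1 at −98 to −80, and Hsp90b1 carried 2, at −212 to −194 on the sense strand and at −107 to −89 on the opposite strand. The 3 promoters are shown with each match in capitals, with that of Sdf2l1, which held no match, for comparison. They lie at chr2:34771840-34772089 (plus strand) for Hspa5, chr10:86705445-86705694 (minus strand) for Hsp90b1, chr12:17266339-17266588 (plus strand) for Pdia6 and chr16:17132384-17132633 (minus strand) for Sdf2l1, each read 5′ to 3′ along its gene.
Hspa5: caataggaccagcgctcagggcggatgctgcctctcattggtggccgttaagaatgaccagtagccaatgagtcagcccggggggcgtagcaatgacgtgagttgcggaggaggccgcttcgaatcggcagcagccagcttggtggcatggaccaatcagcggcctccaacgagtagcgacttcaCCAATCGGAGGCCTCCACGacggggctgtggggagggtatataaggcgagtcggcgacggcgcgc
Hsp90b1: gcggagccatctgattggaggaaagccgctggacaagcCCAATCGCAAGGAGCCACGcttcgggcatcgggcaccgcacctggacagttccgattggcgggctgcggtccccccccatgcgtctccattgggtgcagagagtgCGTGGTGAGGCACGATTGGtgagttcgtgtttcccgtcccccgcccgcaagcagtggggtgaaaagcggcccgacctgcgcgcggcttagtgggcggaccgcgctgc
Pdia6: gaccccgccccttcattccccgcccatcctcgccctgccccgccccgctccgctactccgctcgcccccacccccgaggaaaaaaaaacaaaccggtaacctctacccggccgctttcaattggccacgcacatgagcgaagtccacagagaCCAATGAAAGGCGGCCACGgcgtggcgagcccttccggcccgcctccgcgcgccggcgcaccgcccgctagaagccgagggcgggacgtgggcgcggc
Sdf2l1: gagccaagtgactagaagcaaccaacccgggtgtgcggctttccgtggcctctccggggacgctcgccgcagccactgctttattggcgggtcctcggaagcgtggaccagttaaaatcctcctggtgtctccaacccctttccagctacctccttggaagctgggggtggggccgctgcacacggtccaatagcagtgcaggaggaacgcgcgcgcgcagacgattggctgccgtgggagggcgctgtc
The most upstream GENCODE transcript of Hspa5, Hsp90b1 and Pdia6 starts inside the window shown, so distances depend on the start chosen. ERSE-II (ATTGGNCCACG) was in none of the 8 promoters and in 0.037% of all genes, and the XBP1 and ATF6 site TGACGTGG (UPRE) was in none of the 8 and in 0.603% of all genes. The shorter core ACGTG, which lies inside the UPRE, was in 3 of the 8 (Dnajb9, Hspa5 and Pdia6) and in 18.5% of all genes. Each match is a description of the letters in these windows.

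Values are the authors' normalized reads, gene counts divided by 1 factor per library, and libraries held 18208879 to 24352961 reads. Sirt2 had 200.6 to 248.1 normalized reads in KO MET/CAT and 908.4 to 1068 in WT MET/CAT livers, and 125.7 to 232.6 in KO GFP and 725.8 to 923.6 in WT GFP livers. Its 3 KO libraries lay below the 3 WT libraries under either plasmid. The 10 hepatocyte markers were read in every group, with summed values of 2592071 to 2946323 in KO MET/CAT, 3143608 to 3989808 in WT MET/CAT, 2417456 to 3101669 in KO GFP and 2656044 to 2870884 in WT GFP livers. Every WT MET/CAT library thus lay above every WT GFP library in this sum. Most of the sum was Alb, which averaged 2468927 ± 231755 in WT MET/CAT and 1540152 ± 47117 in WT GFP livers. Of the 10 markers, 5 were higher and 5 lower in that comparison (median log2 difference 0.08). No single marker was called in it by limma. KO GFP replicate 3 stood apart from the other libraries on the first principal component. Its deviations from each gene's mean rose with exon length across genes (Spearman rho = 0.435). Such deviations fell with exon length in WT GFP replicate 2 (rho = −0.334) and replicate 1 (−0.208), KO MET/CAT replicate 2 (−0.235) and WT MET/CAT replicate 1 (−0.209). In whole liver, fewer cells of a type and less RNA per cell cannot be told apart. The 10 genes together took 0.252%, 0.195% and 0.191% of the reads in KO MET/CAT, 0.148%, 0.26% and 0.352% in WT MET/CAT, 0.164%, 0.183% and 0.207% in KO GFP, and 0.173%, 0.154% and 0.15% in WT GFP livers. The share was thus highest and lowest within the same group, WT MET/CAT.

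Per kilobase of exon, Hspa5 was the most abundant of the 10 in every group and Sec61a1 the least. In WT GFP livers Hspa5 had 2153 ± 305.2 normalized reads per kilobase, Sec61b 1967 ± 450.0 and Hsp90b1 1766 ± 213.7, and the libraries of these 3 genes overlapped. Pdia6 (1309 per kilobase) and Pdia4 (991.2 per kilobase) followed, each below its predecessor with no overlap between libraries. Xbp1 had 882.4 per kilobase, within the spread of Pdia4. Sdf2l1 (442.2), Hyou1 (274.5) and Dnajb9 (252.3) lay below Xbp1 and overlapped their neighbours in this order, and Sec61a1, at 153.3 ± 21.6 per kilobase, lay below Dnajb9 with no overlap. In WT MET/CAT livers the order began with Hspa5 (4184 per kilobase), Xbp1 (2411) and Pdia4 (2019), and every neighbouring pair overlapped. In KO MET/CAT livers it began with Hspa5 (3272), Sec61b (2203) and Hsp90b1 (1972), and in KO GFP livers with Hspa5 (2347), Sec61b (1517) and Hsp90b1 (1473).

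Hspa5 (chromosome 2, 34771970 to 34777547, plus strand, GRCm38) encodes BiP, the ER member of the Hsp70 family. It had 18829.8, 11999 and 10689 normalized reads in the 3 KO MET/CAT libraries and 8840.2, 14999 and 29248 in the 3 WT MET/CAT libraries. It had 9596, 10769 and 9409 in KO GFP and 9932, 9764 and 7617 in WT GFP livers. WT MET/CAT replicate 3 was far above all other libraries, whereas replicate 1 of that group lay within the WT GFP range. The difference between WT MET/CAT and WT GFP livers was 0.80 (SE 0.35) on the log2(value + 1) scale, with a limma p adjusted by Benjamini-Hochberg of 0.305. Without WT MET/CAT replicate 3 it was 0.35, and without WT MET/CAT replicate 1 it was 1.21.

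Hyou1 (chromosome 9, 44379490 to 44392369, plus strand), a large Hsp70-related protein that exchanges the nucleotide of BiP, had 4949, 3935 and 2849 normalized reads in KO MET/CAT and 1893, 4598 and 9869.8 in WT MET/CAT livers. It had 1748, 2195 and 1987 in KO GFP and 2336, 2104 and 1513 in WT GFP livers. All 3 KO MET/CAT libraries lay above all 3 KO GFP libraries, a difference of 0.95 (SE 0.43; limma adjusted p = 0.234) that was 0.96 without KO GFP replicate 3. In WT livers the difference between MET/CAT and GFP was 1.18 (SE 0.43; limma adjusted p = 0.227), and the groups overlapped through WT MET/CAT replicate 1. Without that library the difference was 1.79 and passed the threshold (limma adjusted p = 0.0138), and without WT MET/CAT replicate 3 it was 0.60 (adjusted p = 0.629). Its highest library held 6.52 times its lowest, the widest range of the 10 genes.

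Hsp90b1 (chromosome 10, 86690209 to 86705509, minus strand), the Hsp90 of the ER, which folds a narrow set of clients such as integrins and Toll-like receptors, varied little. It had 8715, 8172 and 6972 normalized reads in KO MET/CAT and 6526, 6482 and 10025 in WT MET/CAT livers. It had 5246, 6275 and 6293 in KO GFP and 7867, 7318 and 6178 in WT GFP livers. The 3 KO MET/CAT libraries lay above the 3 KO GFP libraries, whereas the 2 WT groups overlapped. It overlaps 1810014B01Rik on the opposite strand and Gm15344 on its own strand, which had at most 40.7 and 46.7 normalized reads.

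Dnajb9 (chromosome 12, 44205559 to 44210326, minus strand), a J-domain partner of BiP that also restrains IRE1, had 1045, 546.1 and 570.0 normalized reads in KO MET/CAT and 412.7, 968.0 and 1209.7 in WT MET/CAT livers. It had 877.9, 956.7 and 875.1 in KO GFP and 650.2, 741.1 and 537.9 in WT GFP livers. The 3 KO GFP libraries were close together and lay above all 3 WT GFP libraries. Each MET/CAT group overlapped both GFP groups. Sdf2l1 (chromosome 16, 17130138 to 17132383, minus strand), which works with an ER J-domain protein to hold unfolded chains in solution, had 911.6, 845.3 and 575.3 normalized reads in KO MET/CAT and 1035, 559.9 and 1740.0 in WT MET/CAT livers. It had 303.4, 582.1 and 466.5 in KO GFP and 520.6, 628.9 and 320.5 in WT GFP livers. The difference between WT MET/CAT and WT GFP livers was 1.09 (SE 0.38; limma adjusted p = 0.213), and here replicate 2 of WT MET/CAT, not replicate 1, lay within the WT GFP range. Without WT MET/CAT replicate 3 it was 0.69.

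Pdia4 (chromosome 6, 47796141 to 47813430, minus strand) and Pdia6 (chromosome 12, 17266545 to 17284770, plus strand) encode disulfide isomerases that associate with BiP, and Pdia6 is also known to limit the activity of the stress sensors. Pdia4 had 4176, 2970.1 and 2672 normalized reads in KO MET/CAT and 3565, 3763 and 7204 in WT MET/CAT livers. It had 1943, 2561 and 4546 in KO GFP and 2499, 2008 and 2626 in WT GFP livers. In WT livers the plasmid groups did not overlap, and the difference was 0.96 (SE 0.32; limma adjusted p = 0.191). Without WT MET/CAT replicate 3 it was 0.63. The high KO GFP value is that of replicate 3, the library that stood apart. Pdia6 had 6027, 6758 and 5673 normalized reads in KO MET/CAT and 5636, 6075 and 7360.3 in WT MET/CAT livers. It had 4279, 5905 and 4891 in KO GFP and 5442, 4929 and 4331 in WT GFP livers. Its WT groups did not overlap either, and its highest library held only 1.72 times its lowest, the narrowest range of the 10 genes.

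Sec61a1 (chromosome 6, 88503579 to 88518905, minus strand) encodes the subunit that forms the pore of the translocation channel. It had 1375, 977.1 and 1159 normalized reads in KO MET/CAT and 2205, 1907 and 2487 in WT MET/CAT livers. It had 1363, 1325 and 1536 in KO GFP and 957.3, 939.4 and 1199.6 in WT GFP livers. The 3 WT MET/CAT libraries were the highest of the 12, whichever group they were set against. Sec61a1 rose 2.13-fold in WT MET/CAT against WT GFP livers (log2 difference 1.09, SE 0.18; limma adjusted p = 0.0252), in 3 of 3 libraries. The call was lost when WT GFP replicate 1 (1.04, adjusted p = 0.136), WT GFP replicate 2 (1.03, adjusted p = 0.13) or WT MET/CAT replicate 3 (adjusted p = 0.111) was left out. It was also lost with equal library totals (0.98, adjusted p = 0.0557) and in a fit of the 6 WT libraries alone (1.09, adjusted p = 0.0535).

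Between genotypes, Sec61a1 differed in opposite directions under the 2 plasmids. All 3 KO MET/CAT libraries lay below all 3 WT MET/CAT libraries, a difference of −0.92 (SE 0.18; limma adjusted p = 0.495). All 3 KO GFP libraries lay above all 3 WT GFP libraries, a difference of 0.45 (SE 0.18, limma adjusted p = 0.295). This difference was 0.39 without KO GFP replicate 3 and 0.27 after each library's trend with exon length was removed. The interaction of genotype and plasmid was −1.37 (SE 0.26; unadjusted p = 0.000135, limma adjusted p = 0.19). None of these 3 differences passed the threshold in the limma fit. The beta subunit did not follow the pore. Sec61b (chromosome 4, 47474658 to 47483242, plus strand), a small membrane-anchored subunit of the same channel, had 1885, 4085 and 2432 normalized reads in KO MET/CAT and 2209.8, 1893 and 1774 in WT MET/CAT livers. It had 1944, 2635 and 1205 in KO GFP and 2304, 3145 and 2053 in WT GFP livers. All of its groups overlapped, its highest library was KO MET/CAT replicate 2, and its lowest was KO GFP replicate 3. Sec61a1 has 6732 bases of exon and Sec61b 1271. These 2 libraries trended with exon length across genes in opposite directions (Spearman rho = −0.235 and 0.435). What part that trend had in the contrast between the 2 subunits was not tested.

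Xbp1 (chromosome 11, 5520659 to 5525893, plus strand) had 7308, 3091 and 4954 normalized reads in KO MET/CAT and 3565, 12954 and 6976 in WT MET/CAT livers. It had 2702, 3308 and 4025 in KO GFP and 2219, 3778 and 2601 in WT GFP livers. Its highest library was WT MET/CAT replicate 2, and replicate 1 of that group lay within the WT GFP range. The difference between WT MET/CAT and WT GFP livers was 1.29 (SE 0.41; limma adjusted p = 0.165). Without WT MET/CAT replicate 1 it was 1.77 and passed the threshold (limma adjusted p = 0.0253), whereas without WT MET/CAT replicate 2 it was 0.84. The reads were counted per gene, so the spliced and the unspliced Xbp1 mRNA are not separated here.

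**Figure D1:**
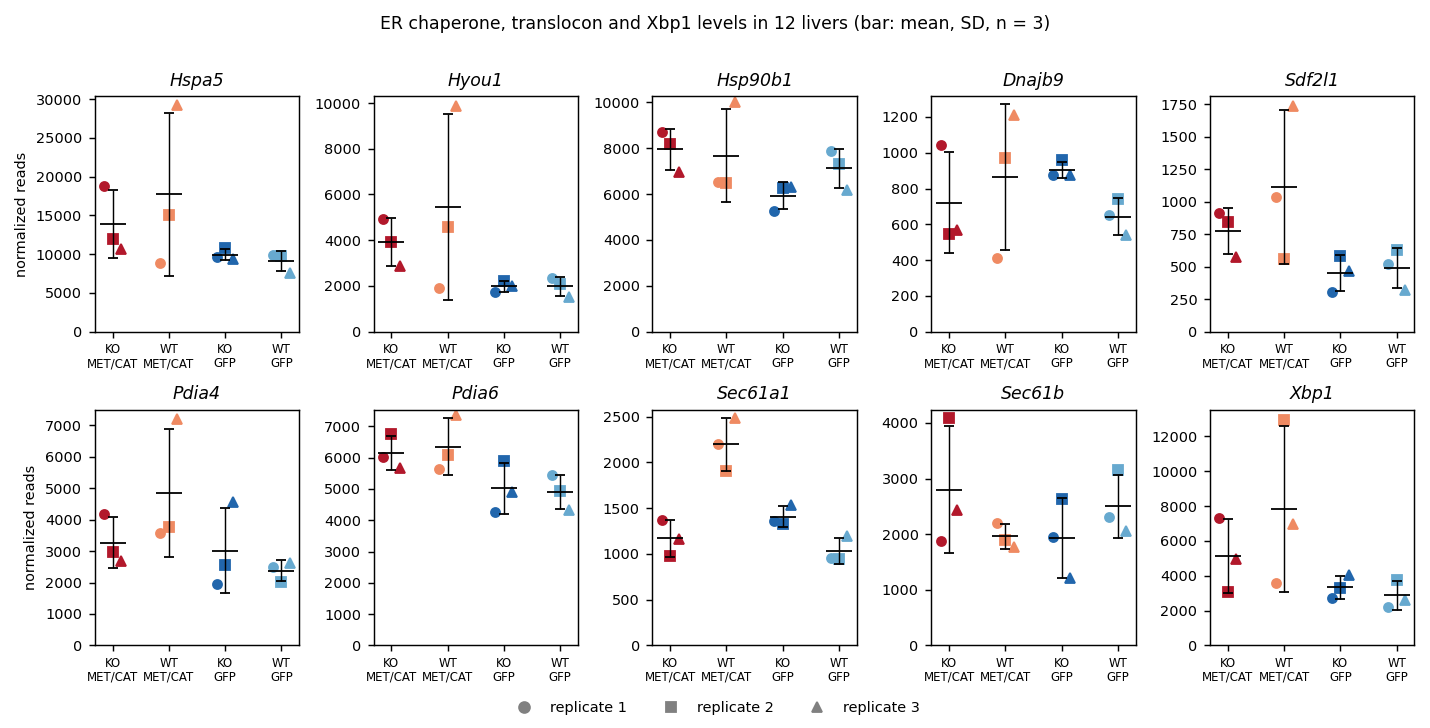
Normalized reads (linear axes from 0) of the 10 genes in KO MET/CAT, WT MET/CAT, KO GFP and WT GFP livers, with 1 point per library, its symbol giving the replicate, and the mean with its SD (n = 3). For Sec61a1 the WT MET/CAT libraries (1907 to 2487) lie above all others, whereas for Hspa5 they run from 8840.2 to 29248 and overlap every other group.

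Of the comparisons within 1 genotype or 1 plasmid, that of the plasmids in WT livers gave the largest median difference of these genes. The median log2 difference between WT MET/CAT and WT GFP livers was 0.88 for the 10 genes and −0.01 for all genes tested, and 9 of the 10 were higher in WT MET/CAT livers. Sec61a1 was the only one of the 10 called in the limma fit, where 0.339% of all genes were called, 0.209% as higher. On the recovered reads edgeR also called 1 of the 10, against 0.526% of all genes, and DESeq2 called 3 (Sec61a1, Xbp1 and Hyou1), against 4.25% of the genes to which it gave an adjusted p. At an unadjusted limma p under 0.05 stood 6 of the 10 and 14.8% of all genes. The median of the 10 was 0.87 after quantile normalization and 0.77 with equal library totals. The medians of all genes there were −0.02 and −0.12. The 3 genes whose WT MET/CAT libraries all lay above the WT GFP libraries were Sec61a1, Pdia4 and Pdia6, none of the 10 lay wholly below, and of all genes tested 10.5% lay wholly above and 10.3% wholly below. The 4 genes with an unadjusted p of 0.05 or more had differences of −0.33 to 0.37. In the same comparison the hepatocyte marker sums did not overlap either, and neither did those of stellate cells and fibroblasts (5586 to 6585 in WT MET/CAT and 4479.8 to 4929 in WT GFP livers). The single markers were split, with 5 of 10 higher for hepatocytes and 5 of 8 higher for stellate cells and fibroblasts. What part these cells had in the result was not tested.

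In KO livers the same plasmids went with a median difference of 0.43 for the 10 genes and 0.05 for all genes, and 8 of the 10 were higher in KO MET/CAT than in KO GFP livers. The size of the median depends on the scaling, which also moves the median of all genes. After quantile normalization it was 0.14 for the 10 genes and −0.03 for all genes. With equal library totals it was 0.21 and −0.17. In the edgeR fit it was 0.38 and −0.01, and in the DESeq2 fit 0.40 and 0.00. None was called by limma, against 1.25% of all genes, and 1 had an unadjusted p under 0.05 (Hyou1), against 20.3% of all genes. On the recovered reads neither edgeR (1.46% of all genes called) nor DESeq2 (7.11%) called any of the 10. Hyou1 and Hsp90b1 were the 2 genes with all 3 KO MET/CAT libraries above all 3 KO GFP libraries, and none of the 10 lay wholly below. Of all genes tested, 14.4% lay wholly above and 10.7% wholly below. The other 9 genes had differences of −0.39 to 0.81.

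Averaged over genotypes, MET/CAT minus GFP had a median of 0.49 for the 10 genes and 0.02 for all genes, and 9 of the 10 were higher with MET/CAT. None of the 10 was called by limma, against 3.8% of all genes, and 7 had an unadjusted p under 0.05, against 17.9% of all genes. The limma adjusted p was 0.0711 for Sdf2l1 (0.95, SE 0.27), 0.0716 for Hyou1 (1.07, SE 0.30) and 0.0972 for Xbp1 (0.92, SE 0.29). It was 0.107 for Sec61a1 (0.41, SE 0.13), 0.185 for Pdia6 (0.34, SE 0.13), 0.199 for Hspa5 (0.62, SE 0.24) and 0.201 for Pdia4 (0.57, SE 0.23). Sdf2l1, Hyou1 and Xbp1 thus came nearest to the threshold without passing it. Leaving out 1 library moved some of them across it: without WT MET/CAT replicate 1, Hyou1 reached 1.37 (limma adjusted p = 0.00293), Xbp1 1.16 (0.0168) and Hspa5 0.82 (0.0364), and without WT MET/CAT replicate 2, Sdf2l1 reached 1.16 (0.0221). Others shrank: without WT MET/CAT replicate 3, Hspa5 was at 0.39 (limma adjusted p = 0.365), and with equal library totals Pdia6 was 0.17 (0.491) and Sec61a1 0.24 (0.39). On the recovered reads edgeR called 1 of the 10 (Hyou1), against 4.46% of all genes, and DESeq2 called 3 (Hyou1, Sdf2l1 and Xbp1), against 8.22%.

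Between genotypes the 10 genes had smaller medians. In GFP livers the median of KO minus WT was 0.08 for the 10 and −0.07 for all genes, and 7 of the 10 were higher in KO GFP livers. The median of the 10 was 0.34 after quantile normalization and 0.26 with equal library totals, where the medians of all genes were 0.02 and 0.11. None was called by limma (0.00721% of all genes), edgeR (0.00721%) or DESeq2 (0.967%), and 1 had an unadjusted limma p under 0.05 (Sec61a1), against 15.5% of all genes. Sec61a1 and Dnajb9 were the 2 genes with all KO GFP libraries above all WT GFP libraries, none lay wholly below, and of all genes 9.15% lay wholly above and 13% wholly below. In MET/CAT livers the median was −0.22 for the 10 and −0.00 for all genes, and 8 of the 10 were lower in KO MET/CAT livers. The median of the 10 was −0.28 after quantile normalization, −0.16 with equal library totals and −0.43 in the edgeR fit. The medians of all genes there were 0.01, 0.06 and −0.00. None was called by limma or edgeR (0.00721% of all genes each), DESeq2 called 1 (Sec61a1, adjusted p = 0.0129), against 0.245% of all genes, and 1 had an unadjusted limma p under 0.05 (Sec61a1), against 7.76%. Sec61a1 was the only gene of the 10 to lie wholly below, against 7.01% of all genes, and none lay wholly above, against 6.82%. The other 9 genes had differences of −0.42 to 0.50 in GFP livers and −0.51 to 0.44 in MET/CAT livers. The only gene that limma called in each of these 2 comparisons was the targeted Sirt2 (limma adjusted p = 0.00189 in GFP and 0.00394 in MET/CAT livers).

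Averaged over plasmids, KO minus WT ranged from −0.26 to 0.16 over the 10 genes, and the smallest limma adjusted p was 0.66. None had an unadjusted p under 0.05, against 8.11% of all genes. None was called by limma (0.0144% of all genes), edgeR (0.00721%) or DESeq2 (0.287%). Sirt2 was 1 of the 2 genes that limma called. The interaction had a median of −0.32 for the 10 genes and 0.04 for all genes. After quantile normalization these medians were −0.57 and −0.02. Limma and edgeR called none of the 10, and each called 0% of all genes, of which 2153 had an unadjusted limma p under 0.05 (15.5%), as had 1 of the 10 (Sec61a1). DESeq2 called 1 of the 10, Sec61a1 (adjusted p = 0.0013), against 169 of all genes (1.48%). The other 9 genes had interactions of −0.77 to 0.87.

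**Figure D2:**
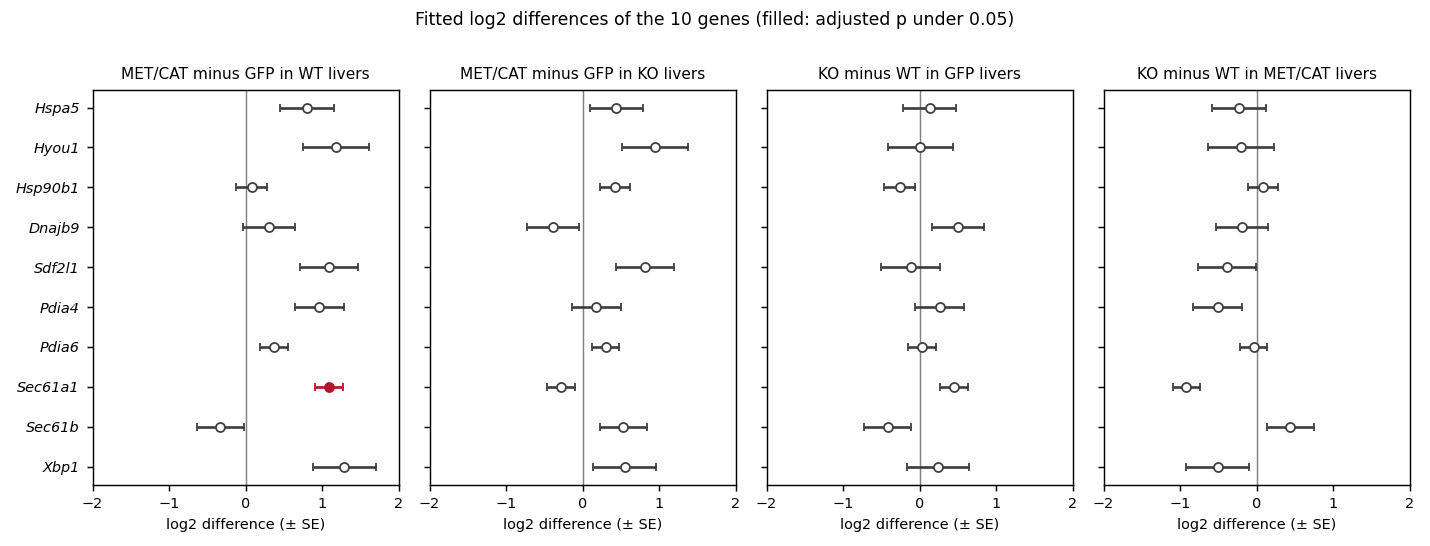
Fitted log2 differences on the log2(value + 1) scale with their SE for the 10 genes in 4 comparisons, where a filled point marks a limma adjusted p under 0.05. The only filled point is Sec61a1 in the comparison of WT MET/CAT with WT GFP livers (1.09), and in KO MET/CAT against WT MET/CAT livers the same gene lies at −0.92.

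Libraries of 1 group differed widely in several of these genes. Among WT MET/CAT livers the highest library held 5.21 times the lowest for Hyou1, 3.63 times for Xbp1, 3.31 times for Hspa5 and 3.11 times for Sdf2l1. Among WT GFP livers the same ratios were 1.54 for Hyou1, 1.7 for Xbp1, 1.3 for Hspa5 and 1.96 for Sdf2l1. Of the 4 groups, WT MET/CAT had the widest ratio for 6 of the 10 genes, whereas KO GFP had it for Pdia4 (2.34), Sec61b (2.19) and Pdia6 (1.38), and KO MET/CAT for Sec61a1 (1.41). WT MET/CAT replicate 3 was the highest of all 12 libraries for 8 of the 10 genes, and WT MET/CAT replicate 1 was the lowest of its group for 6. Among KO MET/CAT livers, replicate 1 was the highest of its group for 8 of the 10. No test of spread was made with 3 libraries per group.

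Most of the genes moved together from library to library. Over the 12 libraries, the correlation of each gene with the mean of the other 9 was 0.95 for Hyou1, 0.94 for Hspa5, 0.86 for Pdia6, 0.82 for Sdf2l1, 0.74 for Pdia4, 0.73 for Hsp90b1 and 0.64 for Xbp1. It was 0.45 for Sec61a1, 0.41 for Dnajb9 and −0.21 for Sec61b. After the group means were taken out, it was 0.92 for Hspa5, 0.91 for Hyou1, 0.90 for Hsp90b1, 0.78 for Dnajb9, 0.67 for Pdia6, 0.65 for Sdf2l1 and 0.62 for Pdia4, but 0.27 for Xbp1, 0.15 for Sec61a1 and −0.31 for Sec61b. Xbp1 and the channel subunits thus had the lowest values within groups. These correlations describe libraries that share their depth and scaling across genes.

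**Figure D3:**
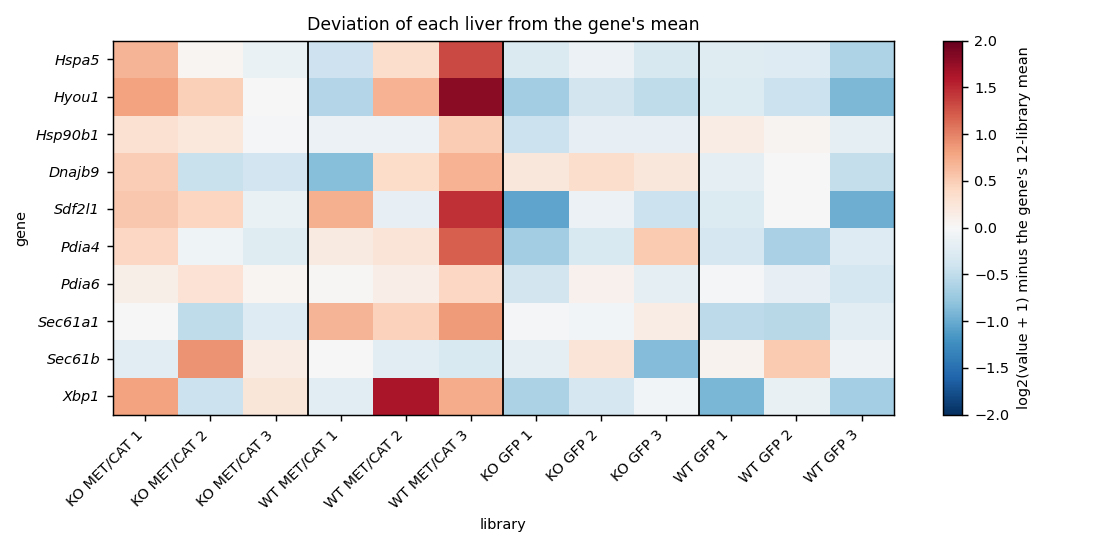
Deviation of each of the 12 libraries from the gene's mean over libraries, on the log2(value + 1) scale, for the 10 genes (rows) and the libraries by group (columns). WT MET/CAT replicate 3 is above the mean for every gene except Sec61b. WT MET/CAT replicate 1 is below the mean for Hspa5, Hyou1, Hsp90b1, Dnajb9 and Xbp1.

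The genes outside the 10 whose pattern was most like theirs were sought among 8596 genes with a mean of at least 100, by Pearson correlation with the mean standardised value of the 10 over the 12 libraries. They were Zbtb21 (0.935), Gpc4 (0.928), Tubb6 (0.909), Fas (0.908), Txlna (0.900), Rnf185 (0.897), Lbp (0.891) and Map7d1 (0.888). Fas is a death receptor and Lbp is the acute-phase protein that binds lipopolysaccharide. Lbp ran from 1179 to 8059 normalized reads. The genes most unlike them were Nfx1 (−0.928) and Tmem131l (−0.926). None of these stands in the ER lists that follow, which do not hold every ER gene.

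A further 114 measured genes of the secretory pathway stood in 9 lists written from general knowledge, each with a smaller median difference than the 10 in both plasmid comparisons. The 10 genes and these lists were chosen with earlier results of these data known, so this ranking is a description only. For the list medians below, the median of all genes was −0.01 in the plasmid comparison of WT livers and 0.05 in that of KO livers. With equal library totals it was −0.12 and −0.17. The list medians were not taken under that scaling, so their signs and the counts of higher genes may depend on the scaling. Limma called none of the 114 genes in any of 7 comparisons. At an unadjusted p under 0.05 stood 16 in the plasmid comparison of WT livers (14% against 14.8% of all genes), 20 in that of KO livers (17.5% against 20.3%), 12 between genotypes in GFP livers (10.5% against 15.5%) and 7 between genotypes in MET/CAT livers (6.14% against 7.76%). These shares are below those of all genes. In these 4 comparisons edgeR called none, and DESeq2 called 1 in the plasmid comparison of WT livers (Copg1) and 4 in that of KO livers (Atf5, Erp29, Ppp1r15a and Qsox1). For the averaged plasmid comparison edgeR called 1 (Atf5) and DESeq2 called 4.

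Among the co-chaperones of BiP and other stress-responsive ER factors, 10 of 11 were higher in KO MET/CAT than in KO GFP livers (median 0.31) and 9 of 11 in WT MET/CAT than in WT GFP livers (median 0.17). Creld2, an ER protein released under stress, averaged 1898 ± 540.5 normalized reads in KO MET/CAT and 663.4 ± 346.1 in KO GFP livers (SD, n = 3 each; log2 difference 1.63, limma adjusted p = 0.126). Manf, a secreted ER stress factor, averaged 2684 ± 665.4 in KO MET/CAT and 1089 ± 646.6 in KO GFP livers (1.52, limma adjusted p = 0.14). In WT livers the smallest p were those of Dnajc3 (0.53, limma adjusted p = 0.236) and Dnajb11 (0.53, adjusted p = 0.309), both J-domain partners of BiP. Of the glycoprotein folding factors, 8 of 9 were higher in WT MET/CAT than in WT GFP livers (median 0.31) and 6 of 9 in KO MET/CAT than in KO GFP livers (median 0.15). Calr, the lectin chaperone calreticulin, averaged 21168 ± 4638 in WT MET/CAT and 14229.5 ± 3160.0 in WT GFP livers (0.57, limma adjusted p = 0.274), and Ganab, a glucosidase that trims glycans for it, differed by 0.52 (adjusted p = 0.202). The smallest p of this list in KO livers was that of Prkcsh, at 0.69 (limma adjusted p = 0.154). Lman1, a cargo receptor for glycoproteins, was lower in KO MET/CAT than in KO GFP livers by its mean (2099 ± 148.3 against 3054 ± 789.9; −0.51, adjusted p = 0.196).

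Of the other disulfide isomerases and oxidases, 9 of 13 were higher in WT MET/CAT than in WT GFP livers (median 0.11) and 10 of 13 in KO MET/CAT than in KO GFP livers (median 0.12). The oxidase Qsox1 averaged 11742 ± 272.4 in KO MET/CAT and 7143 ± 982.7 in KO GFP livers (0.73, limma adjusted p = 0.0957). The smallest p of this list in WT livers was that of the membrane-bound isomerase Tmx1, at −0.29 (adjusted p = 0.433). Of the targeting, translocation and signal peptidase genes, which include the remaining Sec61 and the Sec62 and Sec63 subunits, 13 of 20 were higher in WT MET/CAT than in WT GFP livers (median 0.10) and 16 of 20 in KO MET/CAT than in KO GFP livers (median 0.24). Srpr, the receptor of the signal recognition particle, differed by 0.44 in WT livers (limma adjusted p = 0.286) and Srp9, a subunit of that particle, by 0.65 in KO livers (adjusted p = 0.158). Of the oligosaccharyltransferase genes, which attach glycans to the entering chain, 9 of 10 were higher in WT MET/CAT than in WT GFP livers (median 0.31) and 8 of 10 in KO MET/CAT than in KO GFP livers (median 0.20). The catalytic subunit Stt3a differed by 0.39 in WT livers (limma adjusted p = 0.308).

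Of the genes of ER-associated degradation, 10 of 14 were higher with MET/CAT in WT livers (median 0.14) and 10 of 14 in KO livers (median 0.10), with Vcp, the ATPase that extracts proteins from the membrane, at 0.63 in KO livers (limma adjusted p = 0.139) and Derl2, a Derlin of the same pathway, at −0.50 in WT livers (adjusted p = 0.359). Of the sensors and transcription factors of the unfolded protein response, 8 of 10 were higher in WT MET/CAT than in WT GFP livers (median 0.21) and 4 of 10 in KO MET/CAT than in KO GFP livers (median −0.08). Atf6 differed by 0.51 (limma adjusted p = 0.309) and its homologue Atf6b by 0.49 (adjusted p = 0.24) in WT livers. In KO livers Atf4 differed by 0.92 (limma adjusted p = 0.13), and Mbtps1, a protease that activates ATF6, by −0.45 (adjusted p = 0.2). Of the targets of the PERK and ATF4 arm, 4 of 9 were higher in WT MET/CAT than in WT GFP livers (median −0.03) and 5 of 9 in KO MET/CAT than in KO GFP livers (median 0.15). Atf5, a transcription factor of that arm, averaged 10321 ± 2829 in KO MET/CAT and 4765 ± 1745 in KO GFP livers (1.15, limma adjusted p = 0.0626). Trib3, a pseudokinase induced by that arm, averaged 127.9 ± 94.6 in WT MET/CAT and 231.8 ± 65.0 in WT GFP livers (−1.08, limma adjusted p = 0.309). Of the vesicle coat genes of ER export and retrieval, 12 of 18 were higher in WT MET/CAT than in WT GFP livers (median 0.19) and 9 of 18 in KO MET/CAT than in KO GFP livers (median 0.00). Copg1, a subunit of the COPI coat, averaged 1115 ± 233.3 in WT MET/CAT and 664.4 ± 93.0 in WT GFP livers (0.73, limma adjusted p = 0.0988).

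Between genotypes the medians of the 9 lists lay from −0.34 (PERK and ATF4 targets, 4 of 9 higher in KO GFP than in WT GFP livers) to 0.18 (vesicle coats, 13 of 18 higher) in GFP livers. In MET/CAT livers they lay from −0.18 (sensors and transcription factors, 2 of 10 higher in KO MET/CAT than in WT MET/CAT livers) to 0.27 (PERK and ATF4 targets, 5 of 9 higher). Atf4, the transcription factor downstream of PERK, averaged 1439 ± 680.5 normalized reads in KO GFP and 2769.9 ± 156.8 in WT GFP livers (SD, n = 3 each; −1.09, limma adjusted p = 0.272). Cebpb, a transcription factor of the acute-phase and stress responses, averaged 5475 ± 1811 in KO MET/CAT and 2078 ± 743.2 in WT MET/CAT livers (1.41, limma adjusted p = 0.496).

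**Figure D4:**
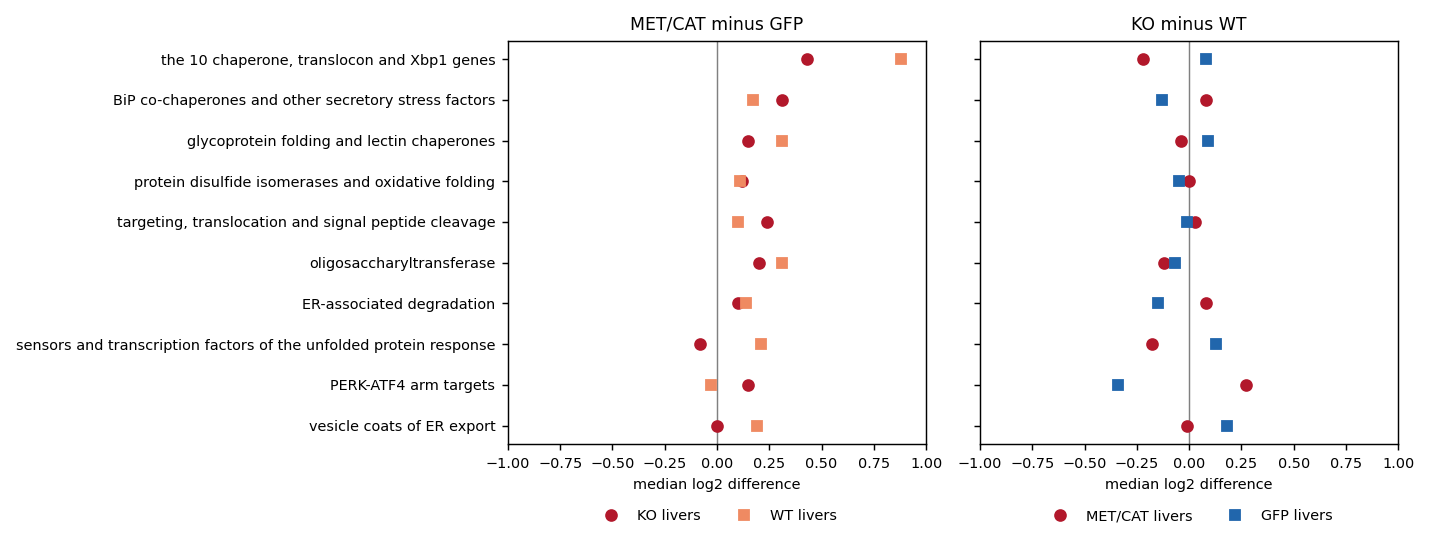
Median log2 difference of the 10 genes (top row) and of 9 lists of other secretory pathway genes, for MET/CAT minus GFP (left, KO and WT livers) and for KO minus WT (right, MET/CAT and GFP livers). On the left the 10 genes lie furthest to the right, at 0.43 in KO livers and 0.88 in WT livers, and the right panel holds medians between −0.34 and 0.27.

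Of the marker lists of other cell types, that of neutrophils differed most with MET/CAT. The summed value of 8 neutrophil markers was 409.1 to 3085 normalized reads in KO MET/CAT, 317.0 to 1077 in WT MET/CAT, 65.5 to 87.4 in KO GFP and 77.1 to 185.8 in WT GFP livers. Of the 7 that were measured, 6 were called higher with MET/CAT averaged over genotypes by limma, with a median of 3.24. The highest sum was that of KO MET/CAT replicate 1, which was also the highest of its group for 8 of the 10 ER genes. In WT MET/CAT livers the highest sum was that of replicate 2 (1077). WT MET/CAT replicate 3, the highest of all 12 libraries for 8 of the 10 ER genes, had a sum of 702.7. Markers of plasma cells, which also carry a large ER, summed to 347.1 to 421.6 in KO MET/CAT, 318.0 to 344.8 in WT MET/CAT, 127.5 to 289.1 in KO GFP and 390.6 to 576.8 in WT GFP livers. Their sum was thus lower in every WT MET/CAT than in every WT GFP library. Only 5 of the 10 plasma cell markers passed the filter, and of these 4 were lower and 1 higher in that comparison. The plasma cell gene Tnfrsf17 was at 0 in KO MET/CAT, WT MET/CAT and WT GFP livers. Kupffer cell and macrophage markers summed to 7616 to 10526 in KO MET/CAT, 6788 to 9787 in WT MET/CAT, 1681 to 5515 in KO GFP and 8724 to 11713 in WT GFP livers, and all 11 had a lower mean in KO GFP than in WT GFP livers (median −1.45), none of them called by limma. Of this list Marco was called higher in KO MET/CAT than in KO GFP livers (3.51, limma adjusted p = 0.0263). Cholangiocyte markers summed to 585.9 to 1248 in KO MET/CAT, 397.5 to 639.9 in WT MET/CAT, 186.2 to 446.7 in KO GFP and 357.0 to 431.8 in WT GFP livers, and of them Sox9 was called higher with MET/CAT averaged over genotypes (2.11, limma adjusted p = 0.0153). Sinusoidal endothelial markers summed to 3349.9 to 4847 in KO MET/CAT, 2636 to 4316 in WT MET/CAT, 2399 to 3750.1 in KO GFP and 2833 to 4299.6 in WT GFP livers. Stellate cell and fibroblast markers summed to 4825 to 6196 in KO MET/CAT, 5586 to 6585 in WT MET/CAT, 4985 to 7111 in KO GFP and 4479.8 to 4929 in WT GFP livers. Every WT MET/CAT and every KO GFP library thus lay above every WT GFP library in this sum, as it did for Sec61a1. Of the 8 markers, 5 were higher and 3 lower in WT MET/CAT than in WT GFP livers. The counts were the same for KO GFP against WT GFP livers. Lrat, of the same list, averaged 54.9 ± 24.6 in WT MET/CAT, 125.2 ± 36.8 in KO GFP and 200.7 ± 106.6 in WT GFP livers. What part these cells had in the values of the 10 genes was not tested.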

How the data were processed

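RNA of whole liver was sequenced in 12 libraries, 3 per group. Per the submitters' processing notes, reads were handled with HISAT2 2.0.4 and HTSeq 0.11.2 on GRCm38. Not given in the sources used here are the kit, whether counting used the strand, and the tool that set the factors, so reads of overlapping genes may be shared. Each deposited value is a signal, namely a gene count that the authors divided by the factor of its library: 100% of the values in each library were whole multiples of 1 step within 0.01 reads. The reads recovered from the steps, 18208879 to 24352961 per library, served for the count tests. The step was close to 1 in the first replicate of both WT groups, where wholeness is no proof. A count of 0 allows up to 2.26 to 3.61 normalized reads per library, for counting error only.

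The main test was limma 3.58.1 (R 4.3.3; mean-variance trend, empirical Bayes, two-sided) on log2(value + 1), which understates the change of low genes. Genes with fewer than 3 libraries at 10 or more were left out. 1 linear model with 4 group means was fitted to all 12 libraries, and 7 contrasts were taken. Calls were made where the p adjusted by Benjamini-Hochberg over all 13871 genes tested was under 0.05. The recovered reads were also tested with DESeq2 1.42.0 and with the quasi-likelihood test of edgeR 4.0.16 after TMM scaling. The limma fit was repeated with other pseudocounts (0.5 and 8) and filters (50, or none), after quantile normalization or scaling to equal totals, with quality weights per library, with the replicate number as a block, on only the 6 libraries compared, without each library's trend with exon length, and without each library in turn.

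The 10 genes, the 9 pathway lists and the 7 cell type marker lists were chosen with earlier results of these data known. All 10 genes are given in every library. Their fold change, SE and adjusted p are printed in a comparison where the unadjusted limma p was under 0.05. From each pathway list up to 2 genes with the smallest p are named in the comparisons described, and 8 genes most like and 2 most unlike the 10 are named by correlation. Gene positions and exon lengths are from GENCODE M21 on GRCm38, and promoters are from RefSeq on GRCm38.p6. Python 3.11.15 with matplotlib 3.10.9 drew the figures.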

Additional observations from a re-analysis of the deposited data

Results flagged for a closer look

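Sec61a1, the pore subunit of the translocation channel, stood out because its genotype difference ran in opposite directions under the 2 plasmids. KO minus WT was −0.92 in MET/CAT livers, with 3 of 3 KO libraries below all WT libraries, and 0.45 in GFP livers, with 3 of 3 KO libraries above all WT libraries. The test of the difference itself, the interaction of genotype and plasmid, gave −1.37 in the limma fit (SE 0.26; limma adjusted p = 0.19), and so does not pass the correction over all genes. Over the other fits its adjusted p ran from 0.0013 (DESeq2 on recovered reads) to 0.232, and over the fits that leave out 1 library from 0.104 to 0.506. The library quality weights gave −1.40 with an adjusted p of 0.00863. Groups of 3 libraries are too small for a search for single outlying libraries.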

How the results depend on the processing

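No direction was reversed for the 17 differences of the 10 genes printed with an adjusted p. Of 196 fits under another setting, 171 kept the side of the threshold, 23 crossed it to significance and 2 lost it. Of 150 fits with 1 library left out, 141 kept it, 6 crossed it to significance and 3 lost it. Library quality weights and DESeq2 called more genes than unweighted limma in all 7 comparisons, and the cause was not tested. Each of the 10 genes had at least 370 reads in every library, so counting error was small beside the spread between libraries. Equal library totals moved the median of all genes to −0.12 in the WT and −0.17 in the KO plasmid comparison, −0.14 in the averaged one and 0.11 for KO minus WT in GFP livers.

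Of the 10 genes, quality weights called 3 (KO minus WT in GFP livers), 5 (MET/CAT minus GFP in WT livers), 1 (in KO livers), 1 (interaction) and 7 (MET/CAT minus GFP averaged). DESeq2 called 1 (KO minus WT in MET/CAT livers), 3 (MET/CAT minus GFP in WT livers), 1 (interaction) and 3 (averaged), edgeR 1 (averaged) and the fit without length trend 2 (averaged). In WT livers equal library totals and the fit of 6 libraries called 0. Leaving out 1 library gave 0 to 3 of the 10 in WT livers and 0 to 3 averaged over genotypes.

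Of all genes, KO minus WT in GFP livers had 1 call as reported, 4575 with quality weights, 121 with DESeq2, 7 with the replicate block, 0 with only 6 libraries, 2 without length trend and 1 to 10 without 1 library. KO minus WT in MET/CAT livers had 1 call, 2 with quality weights, 34 with DESeq2 and 0 to 12 without 1 library. MET/CAT minus GFP in WT livers had 47 calls (29 higher, 18 lower), 81 with quantile normalization, 71 with equal totals (27 higher, 44 lower), 2615 with quality weights, 73 with edgeR, 578 with DESeq2, 103 without length trend and 3 to 372 without 1 library. MET/CAT minus GFP in KO livers had 174 calls, 1635 with quality weights, 928 with DESeq2, 86 with only 6 libraries and 48 to 132 without 1 library. The interaction had 0 calls, 1374 with quality weights, 169 with DESeq2, 2 with the replicate block and 0 to 4 without 1 library. KO minus WT averaged had 2 calls, 160 with quality weights, 39 with DESeq2, 1 with edgeR, a filter of 50, a pseudocount of 0.5 or the replicate block, and 1 to 11 without 1 library. MET/CAT minus GFP averaged had 527 calls, 2377 with quality weights, 1139 with DESeq2 and 277 to 720 without 1 library.

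The replicate block changed no call among the 10 genes (Sec61a1 in WT livers, 1.09, adjusted p = 0.0196). Whether the numbers pair the libraries cannot be decided from these values. Correlations of deviations from the group means were −0.195 to 0.28 for the same number (5 of 18 over 0.1). For different numbers they were −0.289 to 0.189 (8 of 36 over 0.1). WT GFP with KO GFP replicate 2 (0.28) and replicate 3 (0.264) lay above every pair of different numbers, whereas replicate 1 did not (−0.0231).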
